A study of Mus musculus with 21 samples.

Results

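Desmoplakin, encoded by Dsp, was examined together with 5 genes of its desmosomal partners, namely Jup, Pkp2, Pkp4, Dsg2 and Dsc2. These 6 genes are 6 of the 23351 gene symbols in the expression tables of the series, and each symbol had a single row. Dsp was chosen by its measured values, because its level in ribosome-bound RNA of the brain exceeded its level in total RNA, with its kidney values known as well. The partners were added for their place in the desmosome. Values of all 6 genes in the comparisons of translatome with transcriptome, and values of Dsp in any comparison that used those libraries again, are therefore given as a description without a test.

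The 21 libraries came from mouse embryos at embryonic day 14.5 and fell into 7 groups of 3. Total RNA (transcriptome) and RNA pulled down with tagged ribosomes (translatome, isolated by translating ribosome affinity purification, TRAP) were prepared from forebrain and from kidney of Sox2Cre+/-;Gt(ROSA)26Sor-mCherry-Rpl10a+/- embryos. Ribosome-bound RNA of endothelial cells (EC) came from forebrain and kidney of Cdh5CreERT2+/-;Gt(ROSA)26Sor-mCherry-Rpl10a+/- embryos, and that of the Emx1-lineage from forebrain of Emx1Cre+/-;Gt(ROSA)26Sor-mCherry-Rpl10a+/- embryos. All embryos, those behind the transcriptome libraries included, thus carried 1 copy of the allele for the ribosomal protein Rpl10a fused to mCherry, which the ubiquitous CAGGS promoter drives once Cre has removed a stop cassette. Sox2Cre acts in all cells of the embryo proper, Cdh5CreERT2 in endothelial cells after tamoxifen, and Emx1Cre in the neural lineage of the dorsal telencephalon. A library held the organs of very few embryos, and the mouse line went back to a targeted stem cell clone. The total RNA was extracted from lysate cleared by centrifugation, so it lacked what the spin removed.

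Desmosomes are cell junctions that anchor intermediate filaments to the plasma membrane. Their transmembrane cadherins, the desmogleins and desmocollins, bind the armadillo proteins plakoglobin and plakophilin, and these in turn bind desmoplakin, a large plakin that attaches the filaments. Epithelia and heart muscle hold classical desmosomes. Endothelial cells lack them, and there desmoplakin and plakoglobin are known from junctions built on VE-cadherin, the product of Cdh5, which are linked to vimentin filaments.

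Dsp lies on chromosome 13 of GRCm38 at 38151294-38198577 on the plus strand, and its transcript of 9592 bases has 24 exons and a coding length of 8649 bases. Jup, which encodes plakoglobin, lies on chromosome 11 at 100368958-100397763 on the minus strand with 14 exons. Pkp2 lies on chromosome 16 at 16213318-16272712 and Pkp4 on chromosome 2 at 59160850-59355208, both on the plus strand, and they encode plakophilin 2 and the related p0071. Promoter sequences from RefSeq (GRCm38.p6) matched 3 of the 6 genes, Dsp, Jup and Pkp4. Those of Dsp and Jup are shown because these were the genes of the 6 that stood highest in endothelial cells of both organs. Each line holds the 250 bases that end just before the start in RefSeq, which for Jup lies upstream of the GENCODE end given above, read on the strand of the gene, with matches to GGGCGG on either strand in capitals (CCGCCC where the match lies on the other strand).
Dsp, chr13:38151044-38151293, plus strand: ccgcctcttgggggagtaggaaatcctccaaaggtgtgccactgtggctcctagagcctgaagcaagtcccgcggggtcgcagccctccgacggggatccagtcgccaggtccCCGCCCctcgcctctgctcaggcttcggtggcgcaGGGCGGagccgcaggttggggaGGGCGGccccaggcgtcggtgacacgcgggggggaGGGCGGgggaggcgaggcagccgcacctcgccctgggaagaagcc
Jup, chr11:100397791-100398040, minus strand: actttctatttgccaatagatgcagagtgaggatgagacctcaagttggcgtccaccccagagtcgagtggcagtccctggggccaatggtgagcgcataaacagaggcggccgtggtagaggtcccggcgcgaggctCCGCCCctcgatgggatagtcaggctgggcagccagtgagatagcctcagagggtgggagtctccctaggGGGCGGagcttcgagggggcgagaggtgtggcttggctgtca
The Dsp window had a GC content of 72.4% and 4 matches to GGGCGG, the core of the GC box, whose first bases lay 137, 102, 80 and 45 bases before the start. The Jup window had a GC content of 62% and 2 matches, 112 and 42 bases before the start. Among 32851 promoter windows of the same length, 32.7% held GGGCGG on either strand. The ETS-type motif CAGGAAG, present in 10.8% of all windows when searched on both strands, had no match in either window. Nor had the other ETS-type motif searched, CCGGAAG, present in 6.91%, the GATA-type motif AGATAA, present in 9.99%, or the E-box CACGTG, present in 6.02%. Only these exact strings were searched, so other forms of such motifs may be present in either window.

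Depth ranged from 21760652 to 79231692 counted reads per library. The summed RPKM (reads per kilobase of transcript, scaled to the reads of the library) of 8 endothelial marker genes (Cdh5, Pecam1, Tie1, Tek, Kdr, Esam, Emcn and Cd34) was 115 to 132 in the brain translatome, 2349 to 2446 in brain EC, 343 to 372 in the kidney translatome and 2042 to 2338 in kidney EC, so the labels of the endothelial libraries matched their markers. In the Emx1-lineage it was 6.59 to 7.21, and 3 of the 8 genes exceeded a mean of 1 RPKM there. The 8 neural markers summed to 2343 to 2488 RPKM in the Emx1-lineage and still to 409 to 526 RPKM in brain EC. Kidney epithelial markers (10 genes) summed to 257 to 345 RPKM in the kidney translatome and 78.2 to 93.5 RPKM in kidney EC. Meningeal and fibroblast markers (8 genes) summed to 138 to 155 RPKM in the brain translatome and 706, 356 and 393 RPKM in brain EC replicates 1, 2 and 3. Much of that sum was Ptgds, which averaged 13.1 RPKM in the brain translatome and 251 ± 142 RPKM (SD, n = 3) in brain EC. The median log2 fold change of the 8 was 1.05. The part that RNA of these other cells plays in the values below was not tested. Each of the brain EC, kidney EC and Emx1-lineage groups was sequenced in a lane of its own, so lane and group cannot be told apart for them.

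Group means of Dsp ran over the widest range of the 6 genes. In the brain transcriptome it measured 0.727, 0.666 and 0.939 RPKM in replicates 1, 2 and 3, from 299, 361 and 461 reads. In the brain translatome the values were 7.61, 7.63 and 8.84 RPKM. Every brain translatome library thus lay far above every brain transcriptome library, and the 3 within a group were close together. In the kidney transcriptome Dsp measured 10.5, 9.85 and 10.6 RPKM, and in the kidney translatome 51.1, 46.3 and 57.2 RPKM. The kidney groups were likewise separate. Brain EC gave 107, 112 and 69.7 RPKM, and kidney EC 234, 178 and 235 RPKM, from 38382 to 99516 reads. Replicate 3 of brain EC was the lowest of its group and replicate 2 of kidney EC the lowest of the other, yet all kidney EC libraries exceeded all brain EC libraries. The Emx1-lineage gave 9.72, 10.8 and 8.64 RPKM, a range that overlapped that of the brain translatome.

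Ordered by mean, Dsp was highest in kidney EC at 215 ± 32.4 RPKM (SD, n = 3), followed by brain EC at 96.2 ± 23.1 RPKM, the kidney translatome at 51.6 ± 5.48 RPKM, the kidney transcriptome at 10.3 ± 0.395 RPKM, the Emx1-lineage at 9.71 ± 1.07 RPKM, the brain translatome at 8.03 ± 0.703 RPKM and the brain transcriptome at 0.777 ± 0.144 RPKM. Neighbours in this order did not overlap, except that the kidney transcriptome overlapped the Emx1-lineage and the Emx1-lineage overlapped the brain translatome.

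**Figure D1:**
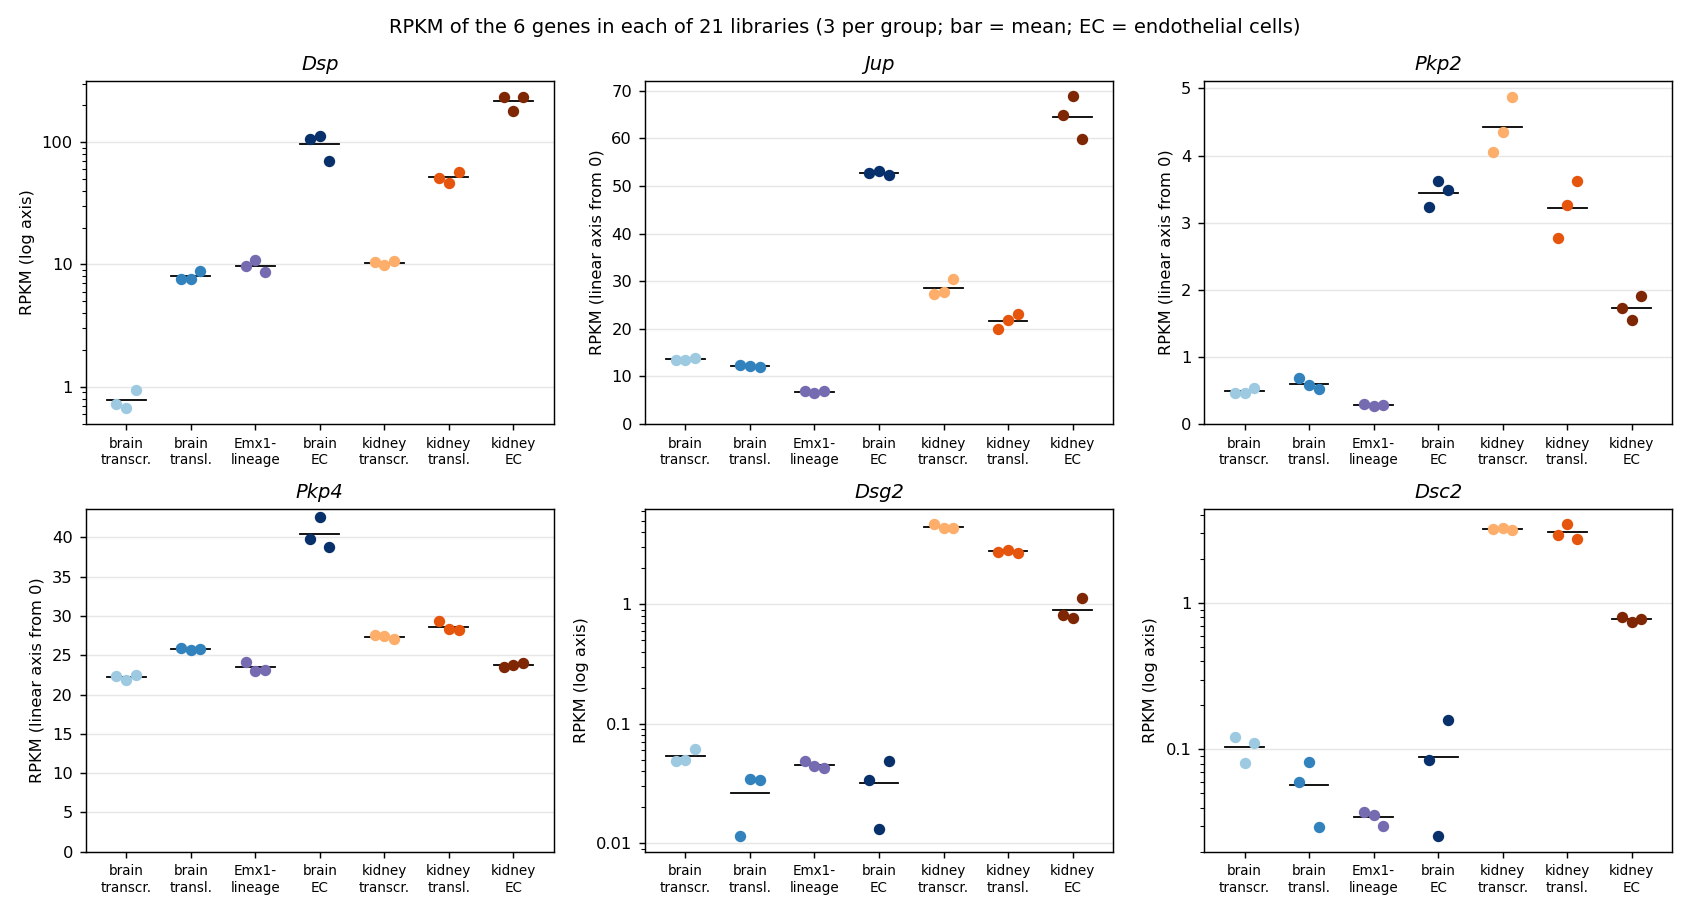
RPKM of Dsp, Jup, Pkp2, Pkp4, Dsg2 and Dsc2 in each of 21 libraries, with 3 points per group and a bar at the mean; the axes of Dsp, Dsg2 and Dsc2 are logarithmic and those of Jup, Pkp2 and Pkp4 linear from 0. Dsp runs from 0.666 RPKM in a brain transcriptome library to 235 RPKM in a kidney EC library, Jup is highest in the EC groups, and Dsg2 and Dsc2 are near 0 in all 4 brain groups.

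Jup, which binds both desmoplakin and the cadherins, showed smaller but tight differences. It measured 12.3, 12.2 and 12.0 RPKM in the brain translatome and 52.7, 53.1 and 52.3 RPKM in brain EC. In the kidney translatome it measured 20.0, 21.8 and 23.1 RPKM and in kidney EC 64.9, 68.9 and 59.9 RPKM. Both endothelial groups lay wholly above their organs. The transcriptome values were 13.4, 13.5 and 13.9 RPKM in brain and 27.4, 27.6 and 30.5 RPKM in kidney, each wholly above the translatome of its organ. The Emx1-lineage was the lowest group at 6.98, 6.50 and 6.93 RPKM. The order by mean was kidney EC, brain EC, kidney transcriptome, kidney translatome, brain transcriptome, brain translatome and Emx1-lineage, and no neighbours overlapped.

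The ratio of Dsp to Jup RPKM, which compares levels per transcript length within a library, moved between groups by more than an order of magnitude. It was 0.0493 to 0.0677 in the brain transcriptome, 0.617 to 0.739 in the brain translatome, 1.25 to 1.66 in the Emx1-lineage and 1.33 to 2.11 in brain EC. In kidney it was 0.347 to 0.382 in the transcriptome, 2.12 to 2.56 in the translatome and 2.58 to 3.92 in EC. Total RNA of both organs thus held less Dsp than Jup per length, while ribosome-bound RNA of the kidney held more. The Emx1-lineage and brain EC libraries likewise held more Dsp than Jup.

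Pkp2, the most widespread plakophilin of desmosomes, was lowest in the Emx1-lineage and highest in the kidney transcriptome. It measured 0.681, 0.577 and 0.526 RPKM in the brain translatome, 3.23, 3.62 and 3.48 RPKM in brain EC and 0.305, 0.262 and 0.281 RPKM in the Emx1-lineage. The 3 ribosome-bound brain groups did not overlap. In kidney it measured 4.06, 4.35 and 4.88 RPKM in the transcriptome, 2.77, 3.27 and 3.62 RPKM in the translatome and 1.72, 1.55 and 1.91 RPKM in EC, so the kidney groups fell in the reverse order from those of the brain. The brain transcriptome gave 0.468, 0.465 and 0.534 RPKM and overlapped the brain translatome, and brain EC overlapped the kidney translatome.

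Pkp4, an armadillo protein of both desmosomal and adherens junctions, was the most even of the 6. Its group means ran from 22.3 ± 0.343 RPKM (SD, n = 3) in the brain transcriptome to 40.4 ± 1.99 RPKM in brain EC. Brain EC measured 39.8, 42.6 and 38.8 RPKM and stood above all other libraries, whose highest value was 29.4 RPKM in a kidney translatome library. Kidney EC measured 23.5, 23.7 and 24.0 RPKM and overlapped the Emx1-lineage.

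The cadherin genes Dsg2 (20558074-20604521, plus strand) and Dsc2 (20030633-20059554, minus strand), which encode desmoglein 2 and desmocollin 2, lie in the desmosomal cadherin cluster of chromosome 18. They were measured well only in kidney. In the 4 brain groups, brain EC included, Dsg2 rested on 3 to 22 reads per library and Dsc2 on 4 to 40 reads. Dsg2 measured 4.65, 4.31 and 4.36 RPKM in the kidney transcriptome, 2.75, 2.85 and 2.70 RPKM in the kidney translatome and 0.810, 0.768 and 1.12 RPKM in kidney EC. Dsc2 measured 3.23, 3.26 and 3.17 RPKM, 2.94, 3.46 and 2.75 RPKM, and 0.801, 0.740 and 0.782 RPKM in the same groups. Kidney EC libraries lay below all other kidney libraries for both genes. The kidney transcriptome and translatome were separate for Dsg2 and overlapped for Dsc2.

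The comparison of translatome with transcriptome asks which transcripts are over- or under-represented in the RNA pulled down with tagged ribosomes. The series held no pull-down from embryos without the tag. The authors name biases of the method, such as uneven activity of the CAGGS promoter between cell types, as a possible part of such differences. Their part in the values here was not tested. In brain, the mean Dsp RPKM of the translatome was 10.3 times that of the transcriptome, and the libraries of the same tissue sample gave ratios of 10.5, 11.5 and 9.42. In kidney the ratio was 5.00, with 4.89, 4.70 and 5.40 in the 3 tissue samples. The edgeR log2 fold change of Dsp was 3.40 (SE 0.12) in brain and 2.32 (SE 0.08) in kidney. No partner came near these values. In brain the log2 fold changes were -0.13 (SE 0.05) for Jup, 0.32 (SE 0.17) for Pkp2, 0.24 (SE 0.04) for Pkp4, -1.06 (SE 0.45) for Dsg2 and -0.82 (SE 0.36) for Dsc2. In kidney they were -0.40 (SE 0.06), -0.46 (SE 0.12), 0.07 (SE 0.04), -0.68 (SE 0.07) and -0.08 (SE 0.10) in the same order. Dsp was chosen by these contrasts and is left out of the counts. Of the 5 partners, 1 (Pkp4) had an edgeR adjusted p under 0.001 in brain, where 37.1% of all tested genes did and 18.6% were higher. Pkp4 fell out when any of the 6 libraries was left out. In kidney 2 did (Jup and Dsg2, both lower), against 30.7% of all tested genes (14.9% higher and 15.8% lower). Without replicate 2 of the kidney translatome Jup fell out, and with the tissue sample as a block Pkp2 was included as well. These counts are a description, and nothing is read from them.

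Endothelial libraries were compared with the translatome of their organ to ask which transcripts are enriched in endothelial cells. In brain, Jup rose with a log2 fold change of 2.40 (SE 0.06, edgeR adjusted p = 2.4e-12), Pkp2 with 2.81 (SE 0.14, adjusted p = 7.6e-10) and Pkp4 with 0.92 (SE 0.06, adjusted p = 3.0e-08). Dsp, given as a description, had a log2 fold change of 3.87 (SE 0.16), or a ratio of mean RPKM of 12.0. Dsg2 at 0.65 (SE 0.59, edgeR adjusted p = 0.36) and Dsc2 at 0.94 (SE 0.57, edgeR adjusted p = 0.17) did not pass, and both rested on few reads. Of the 5 partners 3 were thus enriched, where 46.2% of all tested genes passed in either direction, 24.8% higher and 21.4% lower. In these bulk preparations a larger share of a cell type and more RNA per cell cannot be told apart.

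In kidney, Jup rose by a log2 fold change of 1.93 (SE 0.07, edgeR adjusted p = 4.4e-09). The cadherins fell, Dsg2 with -1.26 (SE 0.15, edgeR adjusted p = 3.0e-05) and Dsc2 with -1.62 (SE 0.13, edgeR adjusted p = 1.2e-06). Pkp2 at -0.54 (SE 0.14, edgeR adjusted p = 7.8e-03) and Pkp4 at 0.09 (SE 0.05, edgeR adjusted p = 0.18) did not pass. Dsp had a log2 fold change of 2.42 (SE 0.13) as a description, a ratio of mean RPKM of 4.18. Over the 5 partners 1 was higher and 2 were lower, against 31.7% of all tested genes past the threshold, 16.7% higher and 15% lower. The kidney epithelial markers moved with the cadherins, since 8 of the 10 were lower in kidney EC and none was higher.

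**Figure D2:**
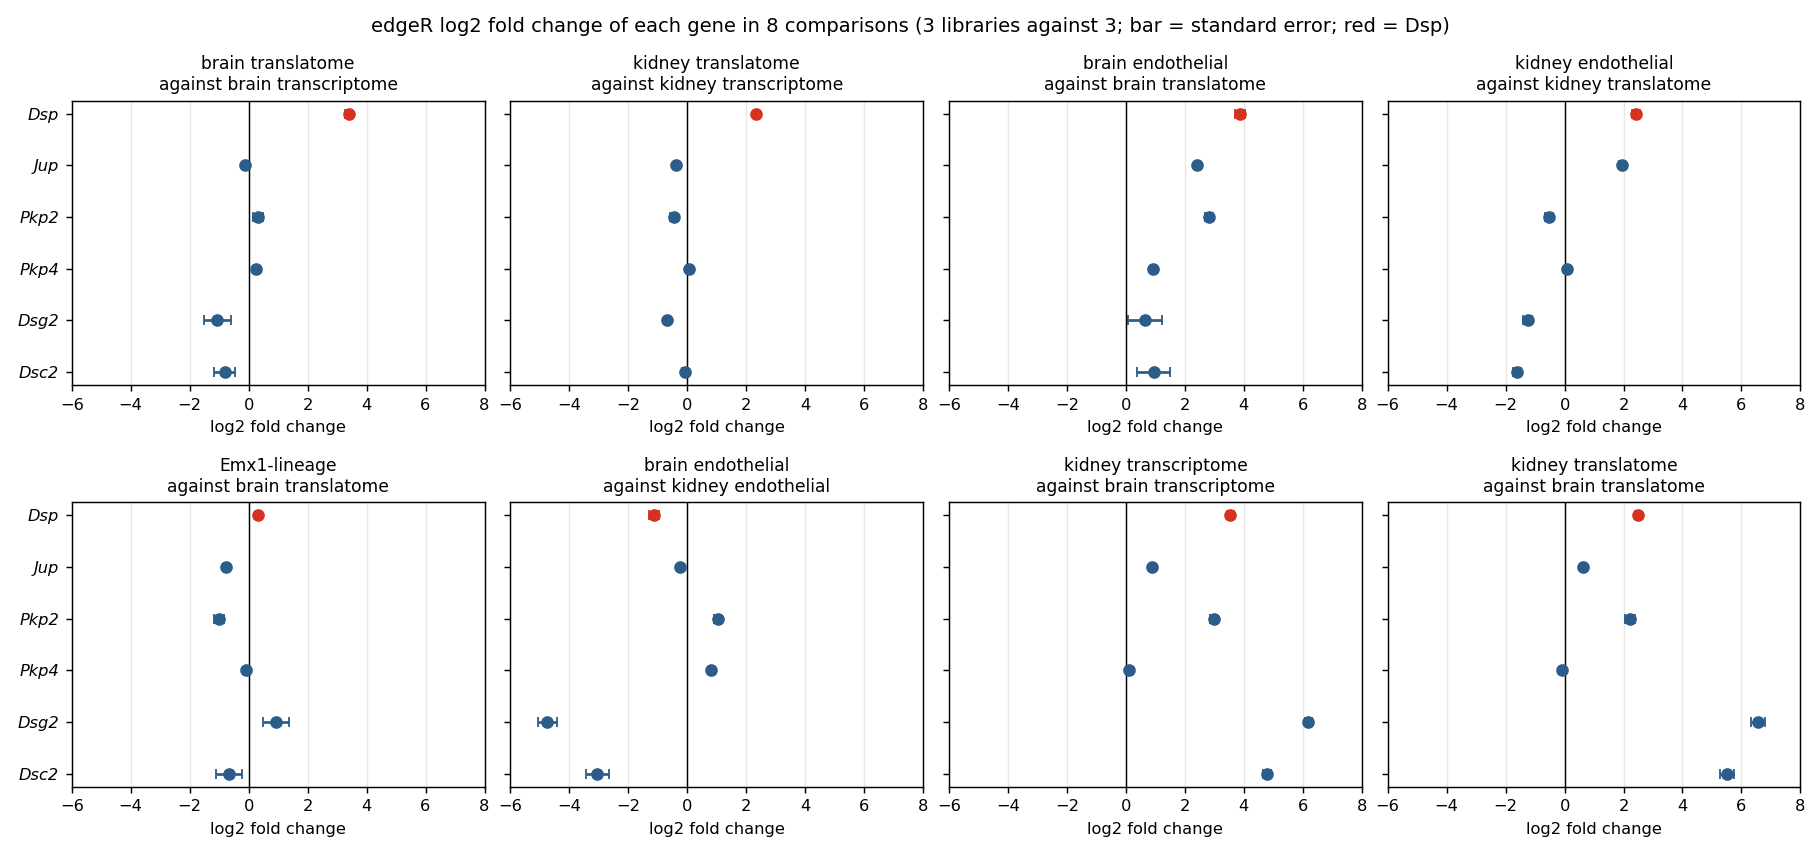
Log2 fold change of each of the 6 genes (horizontal axis) in 8 comparisons of 3 libraries with 3, fitted with edgeR; bars are standard errors and Dsp is in red. Dsp lies at 3.40 and 2.32 in the translatome to transcriptome panels while the partners stay between -1.06 and 0.32, and Dsg2 and Dsc2 lie at -4.75 and -3.06 in brain against kidney EC.

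The scale matters for the genes near 0 here. The main fit scales each library with TMM factors, which take the typical gene as unchanged, whereas RPKM and total counts do not. With total counts the median of all genes moved to -0.30 in the brain and -0.41 in the kidney endothelial comparison, and the calls went from 4740 higher and 4084 lower to 3397 and 6002 in brain, and from 3163 and 2837 to 1564 and 5655 in kidney. Jup and Dsp stayed higher in EC of both organs under every alternative run, with log2 fold changes of 2.11 to 2.42 and 1.57 to 1.99 (brain, then kidney) for Jup and 3.58 to 4.06 and 2.05 to 2.55 for Dsp. Pkp4 in kidney turned to -0.28 (edgeR adjusted p = 7.19e-04) with total counts, and its RPKM was lower in every kidney EC library than in every kidney translatome library. Pkp2 in kidney reached -0.91 with total counts and then passed (edgeR adjusted p = 1.6e-04), as it did at -0.56 in a single fit of all 21 libraries (edgeR adjusted p = 3.35e-04).

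Whether the endothelial fold change of a gene differed between the organs was tested as an interaction over 12 libraries, with a positive value for a larger brain fold change. Over all genes the median of this term was 0.16. It was 3.37 (SE 0.20, edgeR adjusted p = 6.7e-10) for Pkp2, 0.86 (SE 0.08, edgeR adjusted p = 1.0e-07) for Pkp4 and 0.50 (SE 0.09, edgeR adjusted p = 2.6e-04) for Jup. Dsc2 gave 2.59 (SE 0.54, edgeR adjusted p = 8.6e-04) on few brain reads, and Dsg2 gave 1.95 (SE 0.53, edgeR adjusted p = 6.8e-03), which did not pass. Dsp, as a description, gave 1.48 (SE 0.22). Of the 5 partners 4 were past the threshold with a larger value in brain, against 25.1% of all tested genes in either direction, 16.5% in this direction and 8.6% in the other. The terms of Pkp2 and Pkp4 passed in every alternative run. That of Jup did not pass without replicate 3 of the brain translatome (edgeR adjusted p = 0.00125), without replicate 3 of the kidney translatome (edgeR adjusted p = 0.00106) or with relative log expression size factors (edgeR adjusted p = 0.00163). That of Dsc2 did not pass with those size factors, with a minimum of 10 counts in 3 samples, or when any of the 12 libraries other than replicate 2 of brain EC was left out (edgeR adjusted p of 0.00105 to 0.00542 without a library). With the replicate number as a block Dsc2 did not pass either (edgeR adjusted p = 0.00191). The 8 endothelial markers all had larger fold changes in brain too, with a median term of 1.54. The meningeal and fibroblast markers, of which 5 of 8 passed with a larger value in brain, had a median term of 1.86, and the kidney epithelial markers, of which 6 of 10 did, had a median term of 1.41. The part of these cells in the terms of the partners was not tested.

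Endothelial cells of brain and kidney were also compared directly, which involved none of the libraries that had drawn attention to Dsp. Dsp was lower in brain EC with a log2 fold change of -1.12 (SE 0.18, edgeR adjusted p = 2.5e-04), and the kidney mean was 2.24 times the brain mean. Dsg2 fell with -4.75 (SE 0.33, edgeR adjusted p = 4.0e-07) and Dsc2 with -3.06 (SE 0.39, edgeR adjusted p = 5.3e-05). Pkp2 with 1.03 (SE 0.12, edgeR adjusted p = 3.4e-05) and Pkp4 with 0.81 (SE 0.07, edgeR adjusted p = 1.5e-06) were higher in brain EC. Jup, at -0.25 (SE 0.07, edgeR adjusted p = 8.5e-03), did not pass, and DESeq2 put it just past the threshold (adjusted p = 9.9e-04). In sum, 5 of the 6 genes passed, 2 higher and 3 lower in brain EC, where 37% of all tested genes passed, 20.1% higher and 16.9% lower. The call for Dsp held in each alternative, with log2 fold changes from -1.24 to -0.93 and adjusted p up to 9.3e-04. Kidney epithelial markers were 17.9 to 30.1 RPKM in sum in brain EC and 78.2 to 93.5 RPKM in kidney EC, and their part in the Dsp, Dsg2 and Dsc2 differences was not tested. Of 7 epidermal markers, 1 was higher and 3 were lower in brain EC and the other 3 did not pass. Their sum was 7.80 to 8.70 RPKM in brain EC and 7.33, 15.0 and 6.84 RPKM in replicates 1, 2 and 3 of kidney EC, and their part was likewise not tested.

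The Emx1-lineage is neural by its driver, and its endothelial markers were low, as given above. Against the brain translatome, Jup fell with a log2 fold change of -0.78 (SE 0.05, edgeR adjusted p = 1.7e-08) and Pkp2 with -1.01 (SE 0.18, edgeR adjusted p = 3.9e-04). Pkp4 (-0.08, SE 0.04), Dsg2 (0.93, SE 0.45) and Dsc2 (-0.66, SE 0.44) did not pass, with edgeR adjusted p of 0.15, 0.11 and 0.24. Thus 2 of the 5 partners were lower, where 22.1% of all tested genes passed, 9.2% higher and 12.8% lower. The Pkp2 call was lost without any single Emx1-lineage library or without replicate 1 of the brain translatome (edgeR adjusted p of 0.00109 to 0.00438). Dsp, as a description, was at 0.33 (SE 0.08). All 8 endothelial markers were lower in the Emx1-lineage, with a median log2 fold change of -4.07, and all 8 meningeal and fibroblast markers were lower with a median of -2.58. Dsp measured 8.64 to 10.8 RPKM in Emx1-lineage libraries and 7.61 to 8.84 RPKM in brain translatome libraries. The defining endothelial gene Cdh5 averaged 0.719 RPKM in the former and 16.6 RPKM in the latter. The Dsp mean in the Emx1-lineage was 12.5 times that of the brain transcriptome, and the Jup mean was 0.501 times it. These ratios set ribosome-bound RNA against total RNA. That of Dsp uses libraries by which Dsp was chosen, so its height is no separate result about the Emx1-lineage.

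**Figure D3:**
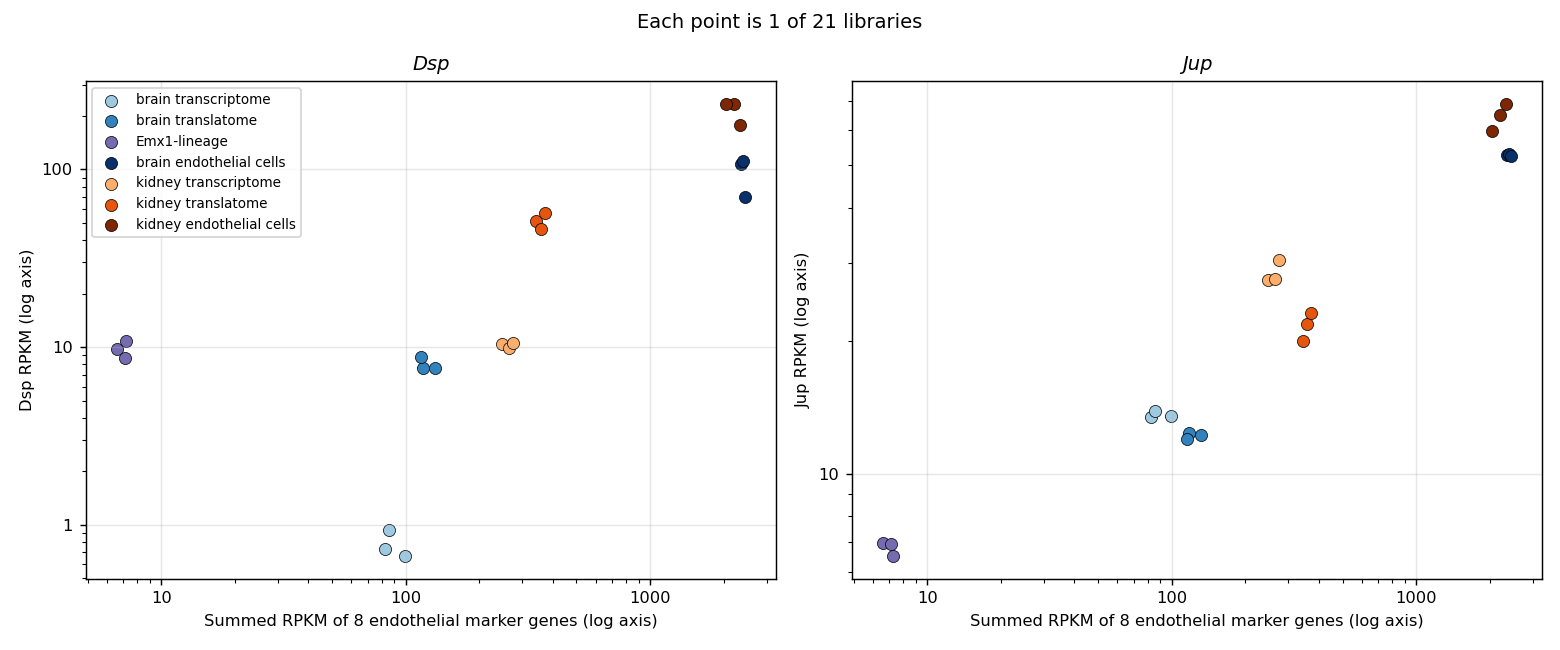
RPKM of Dsp (left) and Jup (right) against the summed RPKM of 8 endothelial marker genes, both axes logarithmic, 1 point per library and colours for the 7 groups. In the Emx1-lineage, where the markers sum to 6.59 to 7.21 RPKM, Jup has its lowest values (6.50 to 6.98 RPKM), while Dsp (8.64 to 10.8 RPKM) overlaps the brain translatome.

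Between the organs, the partners were mostly higher in kidney. In total RNA the log2 fold changes of kidney against brain were 6.18 (SE 0.12, edgeR adjusted p = 6.0e-12) for Dsg2, 4.77 (SE 0.14, edgeR adjusted p = 1.6e-10) for Dsc2, 2.99 (SE 0.12, edgeR adjusted p = 1.5e-09) for Pkp2 and 0.88 (SE 0.04, edgeR adjusted p = 1.1e-08) for Jup. Pkp4 was at 0.09 (SE 0.04, edgeR adjusted p = 0.049). The translatome gave 6.57 (SE 0.23), 5.52 (SE 0.23), 2.22 (SE 0.16) and 0.63 (SE 0.06) for Dsg2, Dsc2, Pkp2 and Jup, all past the threshold, and -0.07 (SE 0.05) for Pkp4, which did not pass. Thus 4 of the 5 partners were higher in kidney in either kind of RNA, where 53.5% of all tested genes passed in total RNA (26.3% higher, 27.2% lower) and 53.4% in the translatome (26.2% higher, 27.2% lower). With total counts the median of all genes moved to 0.20 in both, Pkp4 passed in total RNA (0.27, edgeR adjusted p = 1.8e-05) and its sign in the translatome turned. Calls in total RNA then numbered 6384 higher and 4534 lower in place of 5218 and 5398. Dsp, as a description, was at 3.54 in total RNA and 2.48 in the translatome.

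Other plakins, which link filaments to membranes or to the rest of the cytoskeleton as desmoplakin does, were higher in both endothelial groups. Of the 6 in the list (Plec, Dst, Macf1, Ppl, Evpl and Eppk1), 6 rose in brain EC and 6 in kidney EC. Of all tested genes 24.8% were higher in brain EC and 16.7% in kidney EC. The median log2 fold changes were 3.05 and 2.00 against -0.01 and -0.04 over all genes. All 6 passed in both organs under every alternative run. In brain EC only 3 of the 6 (Plec, Dst and Macf1) exceeded a mean of 1 RPKM, and in kidney EC 5 did. Plec, which encodes plectin, averaged 11.0 RPKM in the brain translatome and 156 RPKM in brain EC, and 14.7 and 78.7 RPKM in kidney. Its log2 fold changes were 4.12 (SE 0.13, edgeR adjusted p = 9.3e-12) and 2.78 (SE 0.13, edgeR adjusted p = 1.9e-08). Macf1, an actin and microtubule crosslinker, rose by 3.22 (SE 0.11) and 1.94 (SE 0.14), and Dst, which encodes dystonin, by 2.78 (SE 0.09) and 2.06 (SE 0.16). Evpl, which encodes envoplakin of the epidermal cornified envelope, rose by 2.08 (SE 0.20) and 1.76 (SE 0.08) but averaged only 0.522 RPKM in brain EC against 8.87 RPKM in kidney EC. In the translatome to transcriptome comparisons 2 were higher and 1 lower in brain, with Plec at 1.61 (SE 0.08, edgeR adjusted p = 9.1e-10), Dst at 0.52 (SE 0.07, edgeR adjusted p = 9.9e-06) and Evpl at -1.03 (SE 0.21, edgeR adjusted p = 6.9e-04). Of all tested genes 18.6% were higher and 18.5% lower in brain. In kidney edgeR called none higher (3 at an unadjusted p under 0.05, and DESeq2 called 1), and Macf1 fell with -0.69 (SE 0.08, edgeR adjusted p = 3.1e-05). There 14.9% of all tested genes were higher and 15.8% lower. In the Emx1-lineage 1 was higher than in the brain translatome (Dst, 0.40, SE 0.06, edgeR adjusted p = 7.4e-05), as were 9.2% of all tested genes. Between the endothelial groups 4 were higher in brain and 2 lower, beside 20.1% and 16.9% of all tested genes.

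The remaining desmosomal genes were nearly silent. Of 10 listed (Dsg1a, Dsg1b, Dsg1c, Dsg3, Dsg4, Dsc1, Dsc3, Pkp1, Pkp3 and Perp), Perp, a tetraspan membrane protein, averaged 0.991 to 2.28 RPKM over the 7 groups, and Pkp3 averaged 2.32, 1.68 and 0.599 RPKM in the kidney transcriptome, kidney translatome and kidney EC. The other 8 stayed under 0.1 RPKM in every group mean. Pkp3 was the 1 gene of the list past the threshold in kidney EC against the kidney translatome (-1.15, SE 0.18, edgeR adjusted p = 2.1e-04). Both edgeR and DESeq2 called 0 in brain EC, in the Emx1-lineage and in either translatome to transcriptome comparison, where 1 or 2 genes had an unadjusted edgeR p under 0.05. Of the 10 genes, 9 could be tested in kidney EC, 9 in brain EC and 7 in the Emx1-lineage. In the translatome to transcriptome comparisons it was 8 in brain and 6 in kidney. Of all tested genes 31.7%, 46.2%, 22.1%, 37.1% and 30.7% passed, in the same order. Most of the list had very few reads, so nothing is read from these counts.

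Of 7 genes of the catenins and the p120 family, 3 were higher and 3 lower in brain EC, and 3 were higher and 2 lower in kidney EC, beside the same shares of all tested genes as above (46.2% past the threshold in brain and 31.7% in kidney). Ctnnb1, which encodes beta-catenin, the closest relative of plakoglobin, rose by 1.32 (SE 0.08, edgeR adjusted p = 1.3e-08) in brain EC and 1.20 (SE 0.09, edgeR adjusted p = 7.0e-07) in kidney EC, to 702 and 592 RPKM on average. Ctnna1 rose by 2.16 (SE 0.07) and 0.59 (SE 0.06) and Ctnnd1, which encodes p120-catenin, by 1.46 (SE 0.07) and 0.91 (SE 0.06). Ctnna2, the neural alpha-catenin, fell by 1.42 (SE 0.10) in brain EC. In the translatome to transcriptome comparisons edgeR and DESeq2 both called 3 of the 7 lower in each organ, Ctnnb1 with -0.36 (SE 0.06) in brain and -0.52 (SE 0.08) in kidney. With edgeR 18.5% of all tested genes were lower there in brain and 15.8% in kidney.

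Among 8 classical and type II cadherins, 4 were higher and 1 lower in brain EC, while 1 was higher and 7 were lower in kidney EC, beside 24.8% and 21.4% of all tested genes in brain and 16.7% and 15% in kidney. Meningeal and fibroblast markers moved the same way, with 7 of 8 higher in brain EC and 4 of 8 lower in kidney EC, and 8 of the 10 kidney epithelial markers were lower in kidney EC. Cdh1 and Cdh16 belong to that marker list as well. Their part in the cadherin values was not tested. The 1 higher in both was Cdh5, at 4.77 (SE 0.10, edgeR adjusted p = 6.6e-13) and 3.16 (SE 0.07, edgeR adjusted p = 3.5e-10). Cdh5 is also an endothelial marker used above, and the EC libraries were made with the Cdh5CreERT2 driver. Its rise thus follows from the design and is no separate result about cadherins. Cdh2, which encodes N-cadherin, rose by 1.43 (SE 0.07) in brain EC and fell with -1.04 (SE 0.14) in kidney EC, where it averaged 8.11 RPKM. Cdh11 rose by 0.60 (SE 0.07) in brain EC and fell with -2.16 (SE 0.14) in kidney EC. Cdh4 was lower in both, with -0.48 (SE 0.07) and -0.73 (SE 0.10).

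Of 9 intermediate filament genes, 2 were higher in brain EC, and 4 were higher and 1 lower in kidney EC. Of all tested genes 24.8% were higher and 21.4% lower in brain EC, so the brain count is near that share. In kidney EC 16.7% were higher and 15% lower. Vim, which encodes the vimentin to which desmoplakin links endothelial junctions, rose by 1.68 (SE 0.08, edgeR adjusted p = 5.7e-10) in brain EC and 1.78 (SE 0.07, edgeR adjusted p = 6.6e-09) in kidney EC, and Nes, which encodes nestin, by 2.73 (SE 0.11) and 1.75 (SE 0.07). The simple keratin Krt18 was at 0.25 (SE 0.20) and -0.39 (SE 0.11) and the muscle filament gene Des at 0.25 (SE 0.21) and -0.76 (SE 0.16), and neither passed in either organ. The other 2 that passed upward in kidney EC were Krt5 and Krt14, keratins of the epidermis, which are named after their values were seen. They averaged 0.00571 and 0.0108 RPKM in brain EC, and 1.35 ± 0.928 and 0.713 ± 0.563 RPKM (SD, n = 3) in kidney EC. In the translatome to transcriptome comparisons edgeR called 0 of this list in either organ (2 in brain and 4 in kidney at an unadjusted p under 0.05), and DESeq2 called 0 in brain and 1 in kidney. With edgeR 37.1% of all tested genes passed there in brain and 30.7% in kidney.

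**Figure D4:**
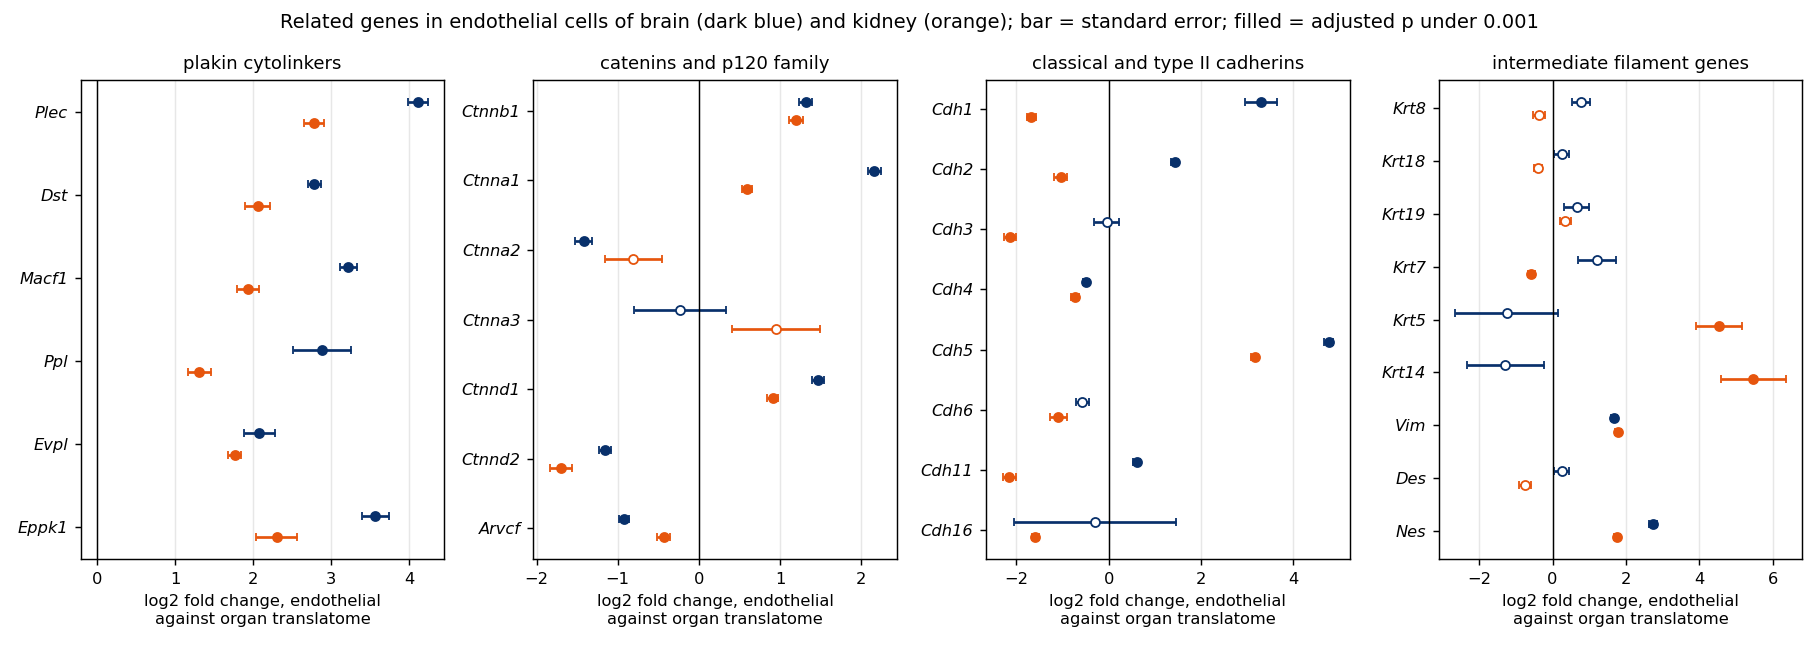
Log2 fold change of EC against the translatome of the organ for plakins, catenins, cadherins and intermediate filament genes, in brain (dark blue) and kidney (orange); bars are standard errors and filled points have an adjusted p under 0.001. All 6 plakins lie to the right of 0 in both organs, whereas the cadherins other than Cdh5 lie to the left in kidney.

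The genes whose levels most resembled each member over the 21 libraries were found by Pearson's r of log2(RPKM + 1) among 13236 genes with a mean of at least 1 RPKM. These are descriptions, since libraries of a group share tissue and kind of RNA. Dsp was most like Fkbp1a (r = 0.989), Fbn1 (r = 0.986) and Hyal2 (r = 0.980), over 21 libraries each. Fbn1, which encodes the matrix protein fibrillin 1, averaged 3.48 RPKM in the brain transcriptome, 13.5 RPKM in the brain translatome, 13.1 RPKM in the Emx1-lineage and 116 RPKM in brain EC, and 20.1, 95.7 and 353 RPKM in the kidney transcriptome, translatome and EC. Jup was only number 969 in likeness to Dsp (r = 0.770). Jup itself was most like Rapgef3 (r = 0.997), Arhgap31 (r = 0.993) and Zfp69 (r = 0.993), and Rapgef3, which encodes the cyclic AMP sensor Epac1, was highest in kidney EC (26.8 RPKM) and brain EC (20.9 RPKM) and lowest in the Emx1-lineage (1.02 RPKM). Pkp2 was most like Ctsl (r = 0.982), 4930523C07Rik (r = 0.982) and AI661453 (r = 0.981), and Pkp4 most like Bsg (r = 0.967), Batf (r = 0.966) and Spsb1 (r = 0.966). Bsg, which encodes the membrane protein basigin, averaged 844 RPKM in brain EC and 157 to 292 RPKM in the other groups. Dsg2 was most like BC021891 (r = 0.999), Habp2 (r = 0.998) and Esrp1 (r = 0.997), the last of these an epithelial splicing regulator, and Dsc2 most like Scnn1g (r = 0.998), Smtnl2 (r = 0.997) and Wnt11 (r = 0.997). The 2 cadherins resembled each other with r = 0.988, which rested on kidney groups against brain groups near 0.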

How the data were processed

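RNA-seq of 21 libraries was analysed in 7 groups of 3, taken from the sample labels. The authors prepared libraries with a TruSeq kit that does not mark strand, mapped reads with RUM to GRCm38 (mm10) and counted them on refGene annotation with rpkmforgenes. The deposited count is the whole number of reads per gene, without normalization. The deposited RPKM values were computed by the authors with the same program. They stated DESeq as their test. Overlapping genes on opposite strands cannot be told apart in such counts.

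The quasi-likelihood test of edgeR 4.0.16 (R 4.3.3; TMM factors, glmQLFit and glmQLFTest, two-sided) was run on rows with at least 1 count, each comparison on its own libraries, with Benjamini-Hochberg adjustment over all rows and a threshold of 0.001. The SE was obtained by dividing the absolute log2 fold change by the root of its F value. Alternatives were DESeq2 1.42.0, other scalings, at least 10 counts in 3 samples, a replicate block, a fit of all 21 libraries and leaving out each library. The test was checked on simulated counts. Tables were joined with pandas 2.3.3 and figures drawn with matplotlib 3.10.9. Gene coordinates come from GENCODE vM21.

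The members and lists were chosen with earlier results of these data known. All 6 members are named, and from each related list up to 4 genes with the highest mean RPKM. Likeness names the 3 genes with the highest r, at a pseudocount of 1. Libraries of a group differed far beyond counting noise (chi-square per gene of at least 4.91), so none was a copy. Libraries are separate preparations from very few embryos each, and p-values measure the spread between them. Translatome and transcriptome libraries of the same number come from the same tissue sample, and their deviations from the group means correlated with r of 0.481 to 0.641 in brain and 0.684 to 0.722 in kidney. For brain and kidney EC the correlations were 0.174 to 0.375, and all 6 libraries correlated best with that of their own number. The sample titles do not say whether such libraries share embryos, so a pairing there is possible but not known. The values given for brain against kidney EC are from the fit without a block, and the block changed no call of a member there (Dsp at -1.14, adjusted p = 9.25e-04). With the tissue sample as a block, 9496 genes passed in the kidney translatome to transcriptome comparison in place of 5929. That blocked fit took the spread of each gene wholly from the trend over genes, which the fit without a block did not. The parts of the pairing and of this step in the gain cannot be told apart.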

Additional observations from a re-analysis of the deposited data

Results flagged for a closer look

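For 4 partners the endothelial fold change differed between the organs by the interaction test over 12 libraries (edgeR, adjusted p under the threshold of 0.001), with a larger log2 fold change in brain than in kidney. Of all tested genes 25.1% passed, 16.5% in this direction and 8.6% in the other. The difference between the organs was 3.37 for Pkp2, which was 2.81 in brain and -0.54 in kidney. It was 0.86 for Pkp4 (0.92 and 0.09), 0.50 for Jup (2.40 and 1.93) and 2.59 for Dsc2 (0.94 and -1.62). The Dsc2 difference rests on 4 to 40 reads in the brain libraries, and it did not pass with relative log expression size factors, with a minimum of 10 counts in 3 samples, with the replicate block, or without any library other than replicate 2 of brain EC. That of Jup did not pass with those size factors or without replicate 3 of either translatome. The 8 endothelial markers had a median difference of 1.54, the 8 meningeal and fibroblast markers 1.86 and the 10 kidney epithelial markers 1.41, and their part was not tested. Over all tested genes the median difference was 0.16, so the Jup difference relative to the typical gene is smaller than its value.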

How the results depend on the processing

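Of the fold changes of the 6 genes, 334 kept their direction and their side of the threshold when a library was left out, 24 fell short of it and 2 newly passed it. Under the other alternatives 309 kept both, 5 fell short, 6 newly passed and 2 turned sign. Both that turned were of Pkp4 with total counts, at -0.28 in kidney EC against the kidney translatome and 0.12 in the kidney against the brain translatome. The numbers that follow count Dsp where its adjusted p was under the threshold, although its value is a description and no test in these comparisons. Of the 6 genes, 2 were under it in the brain translatome to transcriptome comparison, and 1 to 1 when a library was left out, because Pkp4 lay near it. In the Emx1-lineage comparison it was 2, then 1 with the replicate block and 1 to 3 when a library was left out. Dsp was counted there without replicate 3 of the brain translatome, without replicate 3 of the Emx1-lineage, and with DESeq2. In the test of the difference between the organs it was 5 with Dsp counted, 3 with relative log expression size factors and 3 to 5 when a library was left out. In the other comparisons this number stayed within 1.5 times its value. Leaving out a library assumed that the remaining pair varied like the other group. The replicate block moved the number of all genes past the threshold in the kidney translatome to transcriptome comparison from 5929 to 9496, with the limit of that fit given above. It kept the number within 1.5 times elsewhere. For the groups that share only a number, the block ended the Pkp2 call in the Emx1-lineage and the Dsc2 call in the difference between the organs, and same-numbered libraries correlated with r of -0.119 to 0.499. In the translatome to transcriptome comparisons and in brain against kidney EC, the block changed only the Pkp2 call of the kidney translatome to transcriptome comparison. Ordered by TMM-scaled counts, 5 of the 7 groups kept their place for Dsp, Pkp2 and Dsc2 and 2 for Pkp4. With a pseudocount of 0.1 the most similar genes shared 2 of 3 with those given for 5 members and 0 for Dsc2, and without the filter on low values they shared 3, or 2 for Dsg2. In Dsg2 and Dsc2 the low read numbers in brain limit every comparison.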

Other observations

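Dsp took 0.000636 to 0.000897% of all counted reads in the brain transcriptome, 0.00729 to 0.00848% in the brain translatome, 0.00830 to 0.0103% in the Emx1-lineage and 0.0664 to 0.107% in brain EC. In kidney it took 0.00933 to 0.0101% in the transcriptome, 0.0441 to 0.0547% in the translatome and 0.168 to 0.222% in EC. Ranked by RPKM among the genes of a library, Dsp stood between 12980 and 13546 in the brain transcriptome and between 148 and 251 in kidney EC, and in brain EC it was at 555, 503 and 1029.

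Other cell type markers were listed as well. Choroid plexus markers (6 genes) summed to 526 to 646 RPKM in the brain translatome, 312 to 386 RPKM in the Emx1-lineage and 136 to 187 RPKM in brain EC. Epidermal markers (7 genes) summed to 7.80 to 8.70 RPKM in brain EC and 6.84 to 15.0 RPKM in kidney EC, where replicate 2 held the most. Their part in the Dsp values was not tested. Red blood cell markers (6 genes) summed to 154 to 372 RPKM in the brain transcriptome and 83.9 to 176 RPKM in the brain translatome, with Hba-a1 listed at 0 in all libraries.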
